A study of Mus musculus with 8 samples.

Results

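The Kruppel-like factor genes Klf2, Klf3, Klf4, Klf6, Klf7, Klf9, Klf10 and Klf13 were followed on mouse expression arrays. They were chosen as the probes whose gene name in the array annotation equals one of these symbols. The 8 genes had 9 probes, of which 8 were kept, and 7 of the 8 genes entered the tests, among 16153 genes tested in all. The probe of Klf4 was too dim to be tested, and its values are given without a test.

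Kruppel-like factors are DNA-binding proteins that carry a C-terminal set of zinc fingers and recognise CACCC boxes and GC-rich sites in promoters and enhancers. The fingers are closely alike across the family, while the N-terminal regions differ and decide which partners are recruited. By these partners the members here fall into activators (Klf2, Klf4, Klf6 and Klf7), a repressor that binds the corepressor CtBP (Klf3) and repressors that bind the corepressor Sin3 (Klf9, Klf10 and Klf13). In blood cells of mice, Klf2 is known for keeping lymphocytes quiescent and for their traffic, Klf3 for B cell development and Klf4 for monocyte differentiation.

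The cells were C10, a mouse pre-B cell line obtained from the established line HAFTL, with an inducible form of the myeloid transcription factor C/EBPα. Cells with a Tet2 short hairpin RNA (the Tet2KD line) and cells with a control short hairpin RNA (the control line) were each measured 24 h after induction and uninduced at 0 h. Both lines were kept in medium with puromycin and carried the inducible C/EBPα. Induction joined estradiol (100 nM) with the cytokines M-CSF and IL-3 (10 ng/ml of each), so the C/EBPα switch and the cytokines cannot be told apart. Each of the 4 groups had 2 arrays. The submitters call them technical duplicates, so p-values measure only the spread between such arrays and not that between cultures. The labels name no further clones or cultures of a line, so a difference between the lines and one between single cultures cannot be told apart.

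Tet2, which encodes an enzyme that oxidises methylated cytosine, did not test as lower in the Tet2KD line. Its level was 92.8% of control at 0 h (95% interval 78.1% to 110%) and 100% at 24 h (84.5% to 119%). The line is therefore called by its label. Between 47.4% and 55.6% of probe spots were well above background on an array, and the array's 75th percentile intensity was lowest on the Tet2KD 24 h arrays, at 722 and 896, within 722 to 1435 over all arrays. All 8 markers of pre-B cells (among them Cd79a, Cd79b and Pax5) were detected in every group. As multiples of the array's 75th percentile, their summed signal was 356 to 375 in Tet2KD cells at 24 h and 433 to 503 at 0 h, and 258 to 285 in control cells at 24 h and 459 to 496 at 0 h. Most of this sum came from Vpreb1 and Cd79b. Of the 8 markers, 3 were called lower over 24 h in the Tet2KD line and 4 in the control line. Among all genes, 15.4% and 13.1% were. Rag1 stood at 0.111 in Tet2KD cells at 24 h, against 2.83 at 0 h, and Ebf1 at 1.77, against 9.32. In control cells Rag1 stood at 0.151, against 3.04, and Ebf1 at 1.65, against 10.3. Cd79a moved less, at 29.1 against 29.5 in Tet2KD and 27.9 against 35.9 in control cells. The 7 macrophage markers (mostly Lyz2, Cd14, Csf1r and Mpeg1 at 24 h) summed to 797 to 879 in Tet2KD cells at 24 h, against 5.41 to 5.81 at 0 h. In control cells they summed to 829 to 878 at 24 h, against 5.67 to 6.15 at 0 h. Itgam, a marker of the same list, stood at 2.71 in Tet2KD cells at 24 h, against 2.35 at 0 h, and was not called. Markers of neutrophils summed to 47.6 to 48.5 in Tet2KD cells at 24 h, against 0.358 to 0.376 at 0 h, and to 35.0 to 39.0 in control cells at 24 h, against 0.380 to 0.477 at 0 h. Most of the 24 h sum was Camp, at 47.0 in Tet2KD and 31.2 in control cells. S100a8 went the other way, at 0.248 and 4.87 in the same order, and Elane stood at 0.771 and 0.827. Ltf and Mpo were not well above background on any array. The defining markers Alas2 of erythroid cells, Cdh5, Tie1 and Tek of endothelium, Cd3g and Cd8a of T cells and Col1a1, Col3a1, Pdgfra and Dcn of fibroblasts were not well above background on any array. Other markers of these lists were: Epor of the erythroid list, Kdr and Pecam1 of the endothelial list and Cd3e and Cd4 of the T cell list were well above background on all 8 arrays. T cell markers summed to 3.47 to 4.84 in Tet2KD cells at 24 h, against 1.65 to 2.38 at 0 h, and to 3.17 to 4.42 in control cells at 24 h, against 1.86 to 2.12 at 0 h, with Cd4 called higher in both lines. Endothelial markers summed to 5.86 to 6.98 in Tet2KD cells at 24 h, against 2.75 to 3.63 at 0 h, and to 5.05 to 6.06 in control cells at 24 h, against 3.40 to 4.43 at 0 h, with Kdr called higher in the Tet2KD line. Fibroblast markers summed to at most 0.360 in any group, where Pdgfrb was at least 4.996-fold higher at 24 h in the Tet2KD line and at least 9.87-fold higher in the control line, and erythroid markers to at most 0.206.

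Values below are log2 of a probe's signal relative to the 75th percentile of its own array, so 0 is that percentile and a step of 1 is a doubling. They compare arrays for one probe and do not rank one gene's level against another's. A called gene is one with a change of 2-fold or more and a Benjamini-Hochberg adjusted p from limma, over all genes tested, under 0.05, and ± is the standard error of the fit with n = 2 arrays a group.

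Over 24 h of induction the activators Klf6 and Klf7 and the repressors Klf3 and Klf13 rose in both lines, by 1.54 to 1.90 in the Tet2KD line and 1.55 to 1.99 in the control line on the log2 scale. Klf2 rose past the 2-fold limit in the Tet2KD line and stayed short of it in the control line. In the Tet2KD line 5 of the 7 tested members were called higher and 0 lower, where 32.2% of all genes were called in either direction (16.7% higher and 15.4% lower). In the control line 4 of 7 were called higher and 0 lower, where 27.3% of all genes were called (14.2% higher and 13.1% lower). In such bulk RNA, fewer cells of a type and less RNA per cell cannot be told apart. The macrophage and pre-B cell marker sums given above moved over the same 24 h, and their part in these changes was not tested.

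**Figure D1:**
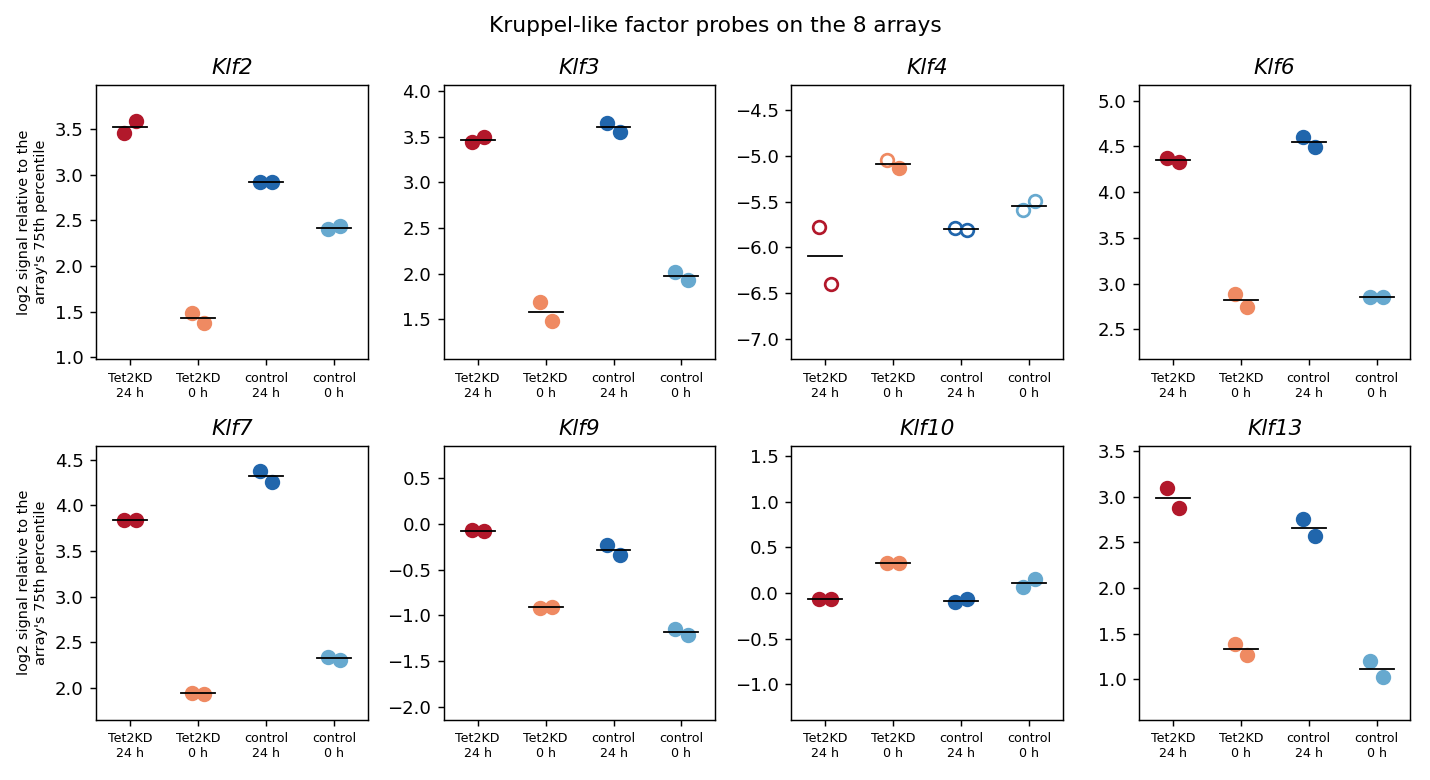
Each panel plots one gene's probe (Klf13 by its brighter probe) as log2 signal relative to the array's 75th percentile, with 1 point per array, a bar at the mean of the 2 arrays, and hollow points where the probe was not well above background. The y axes differ between panels. Klf3, Klf6, Klf7 and Klf13 lie higher at 24 h than at 0 h in both lines, the 0 h points of Klf2 lie apart between the lines, and Klf4 is hollow on 7 of 8 arrays.

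Klf7, an activator best known from neurons and close in sequence to Klf6, stood at 3.84 and 3.84 in Tet2KD cells at 24 h, against 1.95 and 1.93 at 0 h. In control cells it stood at 4.37 and 4.26 at 24 h, against 2.34 and 2.31 at 0 h. The arrays of the 2 times were far apart in both lines, and at each time the Tet2KD arrays lay below the control arrays. The induction was 1.90 ± 0.06 in the Tet2KD line (3.73-fold, adjusted p = 4.6e-06) and 1.99 ± 0.06 in the control line (3.97-fold, adjusted p = 4.73e-06). The difference between these was -0.09 ± 0.09 (95% interval -0.31 to 0.13, adjusted p = 0.535).

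Klf6, a broadly expressed activator that acts in inflammatory macrophages of mice, was at 4.38 and 4.33 in Tet2KD cells at 24 h, against 2.89 and 2.75 at 0 h. Control cells had 4.60 and 4.50 at 24 h, against 2.86 and 2.85 at 0 h. At 0 h the 2 lines overlapped, and at 24 h the control arrays were the higher. The induction was 1.54 ± 0.07 in the Tet2KD line (2.90-fold, adjusted p = 1.76e-05) and 1.70 ± 0.07 in the control line (3.24-fold, adjusted p = 1.45e-05), with a difference of -0.16 ± 0.10 (interval -0.42 to 0.10, adjusted p = 0.354).

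Klf3, the CtBP-binding repressor, stood at 3.44 and 3.49 in Tet2KD cells at 24 h, against 1.69 and 1.48 at 0 h. Its values in control cells were 3.65 and 3.55 at 24 h, against 2.02 and 1.93 at 0 h. The 2 times did not overlap in either line, and the gap between the lines was wider at 0 h than at 24 h. The induction was 1.88 ± 0.09 in the Tet2KD line (3.69-fold, adjusted p = 1.75e-05) and 1.63 ± 0.09 in the control line (3.1-fold, adjusted p = 3.42e-05). Their difference of 0.25 ± 0.13 did not pass the test (interval -0.07 to 0.57, adjusted p = 0.239).

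Klf13, a Sin3-binding factor known in human T cells as an activator of the chemokine gene CCL5, was measured by 2 kept probes. The brighter one stood at 3.09 and 2.88 in Tet2KD cells at 24 h, against 1.39 and 1.27 at 0 h, and at 2.75 and 2.57 in control cells at 24 h, against 1.20 and 1.02 at 0 h. By this probe the Tet2KD arrays lay a little above the control arrays at both times. Its induction was 1.66 ± 0.12 in the Tet2KD line (3.15-fold, adjusted p = 7.31e-05) and 1.55 ± 0.12 in the control line (2.93-fold, adjusted p = 0.000111). The dimmer probe stood at 1.92 and 1.83 in Tet2KD cells at 24 h, against 0.36 and 0.30 at 0 h, and at 1.89 and 1.67 in control cells at 24 h, against -0.05 and 0.04 at 0 h. It also rose in both lines, by 1.55 ± 0.09 in the Tet2KD line and 1.78 ± 0.09 in the control line. The 2 probes disagreed in the sign of the difference between the inductions, which was 0.11 ± 0.16 by the brighter probe (adjusted p = 0.711) and -0.23 ± 0.13 by the dimmer one (adjusted p = 0.278). The annotation gives the dimmer probe's coordinates in the order opposite to the strand of Klf13, whereas 99.57% of 18734 probes are given in the order of their gene's strand, so the strand it reads is uncertain.

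The brighter Klf13 probe (chr7:71082854-71082913, minus strand, build mm9 per the array annotation) is printed in part because it lies in the coding sequence of the conserved zinc fingers, where family members are most alike. Set against the Klf5 probe of the same array, it shares 29 of 40 aligned bases, while 13 of 13 codons read in that stretch encode the same amino acid in both genes. Capitals mark the 11 bases that differ.
Klf13: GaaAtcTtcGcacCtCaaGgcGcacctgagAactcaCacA
Klf5: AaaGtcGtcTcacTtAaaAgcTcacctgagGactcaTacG
The Klf5 probe was not well above background on any of the 8 arrays. Over all 9 member probes, the longest run of identical bases shared with a probe of another Kruppel-like or SP factor gene was 7 to 9 bases. Only probes were compared, which can lie in different parts of their genes. Whether a probe also matches transcripts of other family members was not tested.

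The Sin3-binding repressors Klf9 and Klf10 changed by less than 2-fold. Klf9, which is induced by steroid and thyroid hormones in many tissues, had -0.07 and -0.08 in Tet2KD cells at 24 h, against -0.92 and -0.91 at 0 h. In control cells it had -0.23 and -0.34 at 24 h, against -1.15 and -1.22 at 0 h. The times did not overlap, and the change was 0.84 ± 0.06 in the Tet2KD line (1.79-fold, adjusted p = 0.000102) and 0.90 ± 0.06 in the control line (1.86-fold, adjusted p = 8.84e-05), short of the 2-fold limit in both.

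Klf10, first described in human bone cells as a gene induced early by TGF-beta, was lower at 24 h. It had -0.06 and -0.07 in Tet2KD cells at 24 h, against 0.32 and 0.33 at 0 h, and -0.10 and -0.06 in control cells at 24 h, against 0.07 and 0.15 at 0 h. Every 24 h array lay below every 0 h array. The change was -0.39 ± 0.06 in the Tet2KD line (adjusted p = 0.00156) and -0.19 ± 0.06 in the control line (adjusted p = 0.028). An adjusted p under 0.05 at any fold was reached by 7 of the 7 members in each line, where 68.2% of all genes reached it in the Tet2KD line and 61.8% in the control line.

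Klf4, which promotes monocyte differentiation in mice and is one of the factors that reprogram cells to pluripotency, was well above background on 1 of 8 arrays. Its background-subtracted intensities, not scaled between arrays, were 13.1 and 10.6 in Tet2KD cells at 24 h and 31.5 and 40.9 at 0 h. In control cells they were 19.7 and 22.4 at 24 h and 20.9 and 27.1 at 0 h. Scaled like the other probes, it stood at -5.78 and -6.40 in Tet2KD cells at 24 h, against -5.04 and -5.13 at 0 h. Control cells had -5.79 and -5.81 at 24 h, against -5.59 and -5.49 at 0 h. The array marked well above background was the one at 40.9, or -5.13 when scaled. With no filter on dim probes, Klf4 was called lower at 24 h in the Tet2KD line, and no fold is given at this signal.

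**Figure D2:**
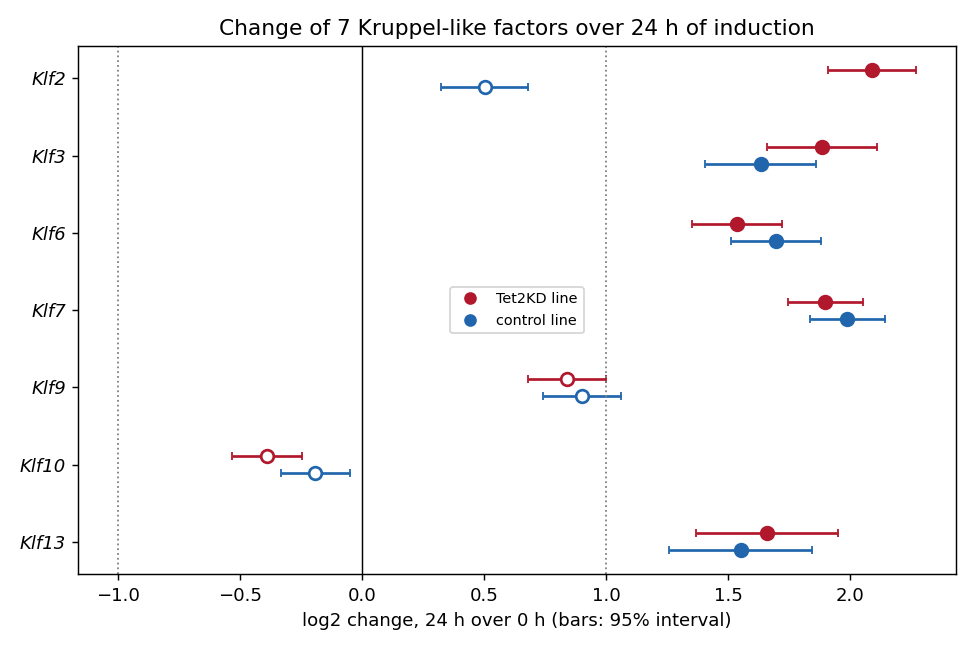
The log2 change of each tested member over 24 h is plotted for the Tet2KD line (red) and the control line (blue), with bars for the 95% interval, filled points for called changes and dotted lines at 2-fold. Klf3, Klf6, Klf7 and Klf13 lie beyond the 2-fold line in both lines, and the 2 estimates of Klf2 lie far apart, at 2.09 and 0.50.

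Klf2 was the member that set the lines apart. It stood at 3.45 and 3.58 in Tet2KD cells at 24 h, against 1.49 and 1.38 at 0 h. In control cells it stood at 2.92 and 2.92 at 24 h, against 2.41 and 2.43 at 0 h. The order of the 4 groups was Tet2KD at 24 h, control at 24 h, control at 0 h and Tet2KD at 0 h, from high to low, and no neighbours in that order overlapped.

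The induction of Klf2 was 2.09 ± 0.07 in the Tet2KD line (4.25-fold, adjusted p = 5.45e-06) and 0.50 ± 0.07 in the control line (1.42-fold, adjusted p = 0.00161). The difference between the inductions was 1.59 ± 0.10 (3.01-fold, interval 1.33 to 1.84, adjusted p = 0.00251). It was called for 1 of the 7 tested members, where 3.82% of all genes were called (2.36% with the larger change in the Tet2KD line and 1.46% with the smaller). No other member reached an adjusted p under 0.05 at any fold, as 16.3% of all genes did, or an unadjusted p under 0.05, as 33.3% did. Each slide held 1 array of every group, and within slides the difference was 1.45 and 1.72.

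The difference in Klf2 had parts at both times. At 0 h the Tet2KD line had 50.4% of the control level (log2 difference -0.99 ± 0.07, adjusted p = 0.00244), a 1.98-fold gap that fell just short of the 2-fold limit and passed it under several other scalings. At 24 h the Tet2KD line was the higher one, at 1.52-fold the control level (0.60 ± 0.07, adjusted p = 0.00818). With arrays scaled to their median in place of the 75th percentile, the adjusted p was 0.0788 at 0 h and 0.338 at 24 h, and 0.0491 for the difference between the inductions. At 24 h it was also above 0.05 with no filter on dim probes (0.0873) and with either control 24 h array left out (0.0585 and 0.0551).

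None of the 7 tested members passed the 2-fold limit between the lines at either time, so limma called 0 at 0 h, where 1.73% of all genes were called (0.334% higher and 1.39% lower), and 0 at 24 h, where 2.04% were (1.04% higher and 0.997% lower). At an unadjusted p under 0.05 there were 5 of 7 at 0 h, where 30.7% of all genes reached it, and 5 of 7 at 24 h, where 31.3% did. At 0 h, Klf2, Klf3 and Klf7 reached an adjusted p under 0.05 at any fold, all lower in the Tet2KD line, where 13.5% of all genes reached it. Klf3 and Klf7 both differed by -0.39 there, with adjusted p = 0.0482 and 0.0179, and neither passed with median scaling, with normexp background correction or with no filter on dim probes. With single arrays left out, the adjusted p was 0.057 to 0.185 for Klf3, above 0.05 in all 8 fits, and 0.0343 to 0.0931 for Klf7. At 24 h, Klf2 (higher) and Klf7 (lower, -0.48 ± 0.06, adjusted p = 0.00982) reached that limit, where 13.8% of all genes did. For Klf7 the adjusted p at 24 h was 0.355 with median scaling, 0.117 with no filter on dim probes and 0.0244 to 0.0622 with single arrays left out.

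The remaining members did not reach an adjusted p under 0.05 between the lines. Klf13 by its brighter probe differed by 0.22 ± 0.12 at 0 h (interval -0.08 to 0.51, adjusted p = 0.282) and 0.32 ± 0.12 at 24 h (interval 0.03 to 0.61, adjusted p = 0.13). By its dimmer probe it differed by 0.33 ± 0.09 at 0 h (adjusted p = 0.0722). At 24 h the dimmer probe gave 0.10 ± 0.09 (adjusted p = 0.53), and the lines overlapped. Klf9 differed by 0.27 ± 0.06 at 0 h (adjusted p = 0.0507) and 0.21 ± 0.06 at 24 h (adjusted p = 0.0924), and its Tet2KD arrays lay above the control arrays at both times. Klf10 differed by 0.22 ± 0.06 at 0 h (adjusted p = 0.0636) and by 0.02 ± 0.06 at 24 h (adjusted p = 0.872), where its groups overlapped. Klf6 differed by -0.04 ± 0.07 at 0 h and -0.20 ± 0.07 at 24 h (adjusted p = 0.793 and 0.142), the first of which changes sign with median scaling. The intervals for Klf6, Klf9 and Klf10 reached no further than 0.43 from 0 on the log2 scale.

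**Figure D3:**
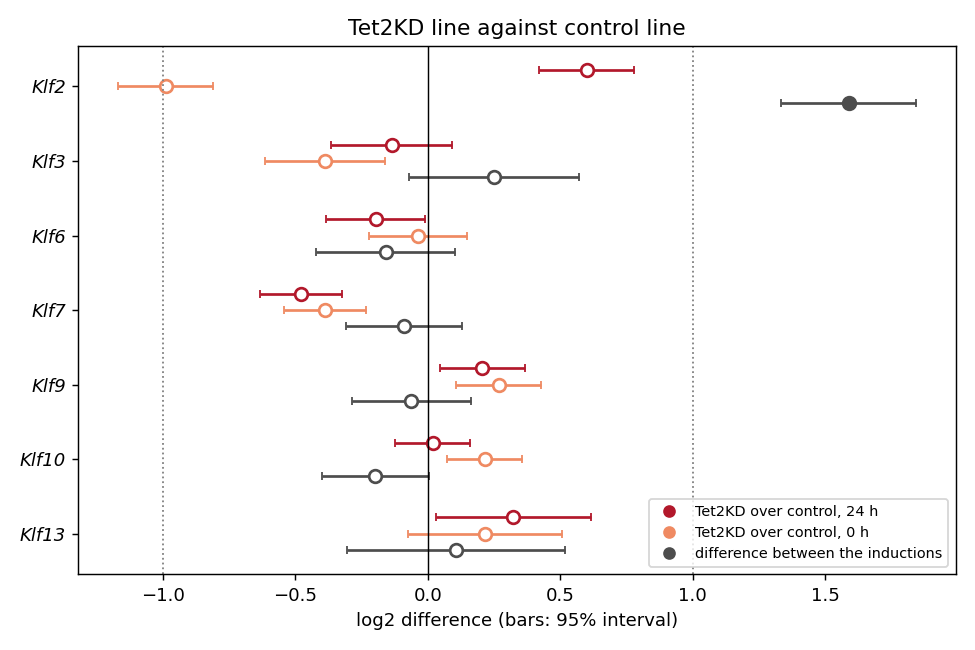
The log2 difference of the Tet2KD line over the control line is plotted for each tested member at 24 h (red) and 0 h (orange), with the difference between the inductions in grey. Bars are 95% intervals, filled points are called and dotted lines mark 2-fold, and the grey point of Klf2 at 1.59 is the filled one.

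The promoters of the 5 members called in the Tet2KD line are shown because these genes rose over the same 24 h and because the family's own sites, CACCC boxes, occur in several of its promoters. RefSeq promoters (build GRCm38.p6) were matched for 7 of the 8 members, all but Klf10. The 150 bases before each annotated start are printed, 5′ to 3′ on the gene's strand. Capitals mark CACCC or its reverse complement GGGTG, and a MEF2 motif, a palindrome of CTA and TAG with any 4 letters between.
Klf2 (chr8:72318912-72319061, strand +): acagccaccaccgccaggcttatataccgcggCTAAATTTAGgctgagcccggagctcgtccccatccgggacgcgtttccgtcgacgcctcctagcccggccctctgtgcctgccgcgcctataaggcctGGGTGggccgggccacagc
Klf3 (chr5:64803371-64803520, strand +): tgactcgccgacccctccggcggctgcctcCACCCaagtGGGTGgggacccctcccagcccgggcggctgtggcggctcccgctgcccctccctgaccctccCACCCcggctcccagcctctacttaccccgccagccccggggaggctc
Klf6 (chr13:5861339-5861488, strand +): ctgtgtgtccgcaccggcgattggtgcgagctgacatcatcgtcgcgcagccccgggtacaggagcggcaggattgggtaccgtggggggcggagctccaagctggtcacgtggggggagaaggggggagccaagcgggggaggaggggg
Klf7 (chr1:64121390-64121539, strand -): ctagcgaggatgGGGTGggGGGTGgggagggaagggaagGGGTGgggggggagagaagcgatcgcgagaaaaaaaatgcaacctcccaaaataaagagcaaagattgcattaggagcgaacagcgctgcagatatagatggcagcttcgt
Klf13 (chr7:63938916-63939065, strand -): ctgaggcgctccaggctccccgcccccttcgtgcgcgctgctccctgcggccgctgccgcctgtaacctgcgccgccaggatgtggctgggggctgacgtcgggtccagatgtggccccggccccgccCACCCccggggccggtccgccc
Over 250 bases before the start and on both strands, CACCC was found in 5 of the 7 promoters (Klf2, Klf3, Klf7, Klf9 and Klf13), against 52.0% of 32851 promoters. The GC box GGGCGG was found in 6 of 7, all but Klf9, against 32.7% of all promoters, and it shares a base with a CACCC match in Klf3 and in Klf13. In Klf2 the CACCC match lies 19 to 15 bases before the start.

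The MEF2 motif was found in the Klf2 promoter alone among the 7, at 118 to 109 bases before the start, and in 3.20% of all promoters. MEF2 factors, activated by the kinase ERK5, are known to drive Klf2 through a site of this kind in endothelial cells. The letters TTNNGNAA, a core of C/EBP sites, were in 0 of the 7 windows and in 36.8% of all promoters. AP-1 letters (TGANTCA, 6.75% of promoters) and FOXO letters (TGTTTAC, 3.17%) were each found in Klf9 alone, in overlap with no other motif except that the AP-1 match runs into the CACCC match. CCAAT was in Klf6, Klf9 and Klf13 (33.8%), and TATAAA (12.4%), TGACGTCA (1.55%) and an EBF motif of TCCC and GGGA with any 2 letters between (0.779%) were in none of the 7. All 7 promoters had more CpG than the median promoter, with 13 (Klf7) to 32 (Klf4) in 250 bases, where the median was 6. The share of all promoters with fewer CpG was 68.5% for Klf7, 78.3% for Klf9 and up to 95.4% (Klf4) for the others. A match is a run of letters and was not tested for binding.

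Genes known as inputs to Klf2 were called in both directions. Of 10 tested genes of the MEK5, ERK5, MEF2 and FOXO routes, 2 were called higher and 3 lower in the Tet2KD line, where 16.7% of all genes were called higher and 15.4% lower, with a median change of 0.12 where that of all genes was 0.14. In the control line 3 were called higher and 3 lower, where 14.2% and 13.1% of all genes were, with a median of 0.04 where that of all genes was 0.00. Foxo1, a forkhead activator of Klf2 in lymphocytes, fell by 1.88 ± 0.07 in the Tet2KD line and fell by 2.08 ± 0.07 in the control line. Its relative Foxo3 rose by 1.57 ± 0.12 in the Tet2KD line (adjusted p = 8.96e-05) and by 1.32 ± 0.12 in the control line. Mef2d fell by 1.73 ± 0.07 in the Tet2KD line and fell by 1.57 ± 0.07 in the control line, and Mef2b fell by 1.15 ± 0.27 and 1.87 ± 0.27 in the same order, the first call being lost with normexp. None of the 10 was called between the lines at either time or for the difference between the inductions.

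Of 9 tested genes (13 listed) reported as targets of these factors, 6 were called higher over the 24 h in the Tet2KD line, where 16.7% of all genes were, and 5 in the control line, where 14.2% were. None was called lower in either line. The median change was 2.43 in the Tet2KD line, where that of all genes was 0.14, and 2.88 in the control line, where it was 0.00. Among those not called, Smad7, an inhibitor of TGF-beta signalling, had -1.33 in the Tet2KD line and -0.59 in the control line (adjusted p = 0.0594 and 0.359), and Mrc1, the mannose receptor, had -0.88 and -0.18 in the same order. The list holds general myeloid genes as well: Cd14, a receptor for bacterial lipopolysaccharide that KLF4 activates in human monocytes, rose by 8.90 ± 0.11 in the Tet2KD line and 9.17 ± 0.11 in the control line. Itgb7, an integrin chain of homing lymphocytes, rose by 6.05 ± 0.40 in the Tet2KD line and 6.67 ± 0.40 in the control line.

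S1pr1, the receptor by which lymphocytes leave tissues and a Klf2 target in mouse lymphocytes, was looked at after its values were seen. Its arrays stood at -1.27 and -1.29 in Tet2KD cells at 24 h, against -3.87 and -3.56 at 0 h. Control cells had -1.90 and -1.90 at 24 h, against -0.78 and -3.00 at 0 h, so the 2 control arrays at 0 h disagreed widely. It was called in the Tet2KD line (2.43 ± 0.68, adjusted p = 0.0215), though not with no filter on dim probes, while the difference between the inductions was 2.45 ± 0.96 with adjusted p = 0.144.

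**Figure D4:**
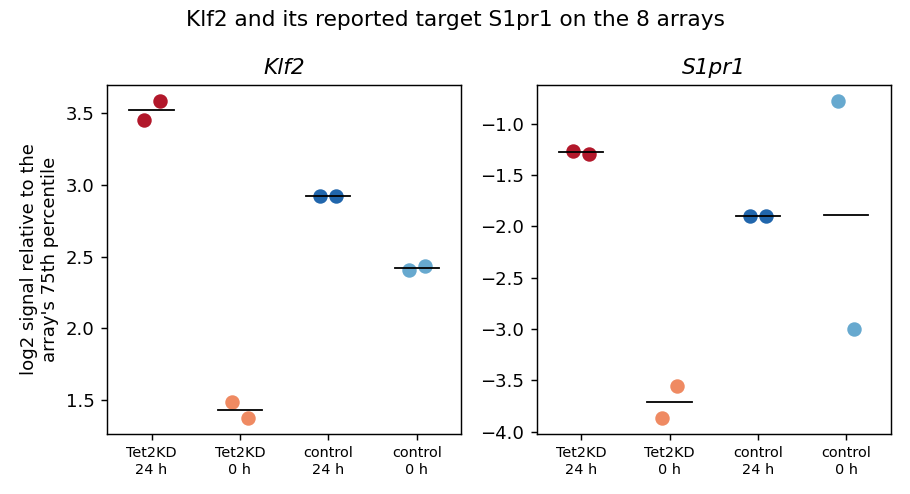
Log2 signal relative to the array's 75th percentile is plotted for Klf2 and S1pr1, with 1 point per array and a bar at the mean of the 2 arrays. In both panels the Tet2KD arrays at 0 h are the lowest, and the 2 control arrays of S1pr1 at 0 h, at -0.78 and -3.00, are far apart.

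Ccl5 and Bcl6 were among the reported targets called between the lines. Ccl5, the chemokine gene tied to Klf13, was at -3.98 and -3.89 in Tet2KD cells at 24 h and -5.30 and -4.57 at 0 h, against -2.93 and -2.77 in control cells at 24 h and -2.82 and -3.15 at 0 h. It was lower in the Tet2KD line at both times, by -1.95 ± 0.25 at 0 h (adjusted p = 0.0104), where 1 of the 2 Tet2KD arrays was not well above background, and by -1.09 ± 0.25 at 24 h (adjusted p = 0.0472). Both calls were lost with normexp background correction and with no filter on dim probes, and the later one also with median scaling. Klf13 itself was not called between the lines at either time. Bcl6, a transcriptional repressor that germinal centre B cells need, was higher in the Tet2KD line at 0 h by 1.05 ± 0.07 (adjusted p = 0.00184), a call lost with normexp.

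Klf2, Klf4, Klf6 and Klf10 are often counted among the immediate-early genes. Of 13 other genes of that class tested (14 listed), 9 were called higher in the Tet2KD line, where 16.7% of all genes were, and 10 in the control line, where 14.2% were, with 0 lower. The medians were 1.62 in the Tet2KD line and 1.38 in the control line. In the Tet2KD line Egr1, Egr2, Ier2 and Fosb were not called, at 0.23, 0.10, 0.59 and -0.80, and in the control line Egr2, Ier2 and Fosb were not, at 0.43, 0.35 and 0.10. The AP-1 subunit gene Fos rose by 5.05 ± 0.10 in the Tet2KD line and 5.66 ± 0.10 in the control line, and Ier3 by 4.50 ± 0.07 and 5.33 ± 0.07 in the same order. Zfp36, which encodes a protein that destabilises cytokine mRNAs, was not well above background in control cells at 0 h and was at least 9.79-fold higher at 24 h. In the Tet2KD line it rose by 3.38 ± 0.59, with 1 of the 2 arrays at 0 h well above background.

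Egr1, a zinc finger factor and immediate-early gene, differed in the opposite direction to Klf2. It stood at 1.70 and 1.81 in Tet2KD cells at 24 h, against 1.52 and 1.53 at 0 h, and at 2.25 and 2.35 in control cells at 24 h, against 1.09 and 0.96 at 0 h. Its change was 0.23 ± 0.08 in the Tet2KD line and 1.28 ± 0.08 in the control line, a difference of -1.05 ± 0.11 (adjusted p = 0.00747). That call was lost with normexp background correction, with median scaling and with no filter on dim probes.

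Of 12 tested genes of corepressors and coactivators that work with the family, 0 were called higher and 1 lower in the Tet2KD line, where 32.2% of all genes were called. In the control line 1 was called higher and 1 lower, where 27.3% of all genes were called. The Tet2KD and control medians were -0.01 and 0.22. Hdac2, a histone deacetylase, fell by 2.07 ± 0.10 in the Tet2KD line, where 1 of the 2 arrays at 24 h was well above background, and was at least 3.07-fold lower in control cells at 24 h, and the calls were lost with normexp and the 75th percentile. Ctbp2, a partner of Klf3, rose by 1.12 ± 0.07 in the control line and had 0.55 ± 0.07 in the Tet2KD line, a difference of -0.56 ± 0.10 that was short of 2-fold (adjusted p = 0.0204).

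Of the TGF-beta pathway, in which Klf10 is known to act, 2 of 8 tested genes were called higher in the Tet2KD line and 1 in the control line, with 0 lower, where 32.2% and 27.3% of all genes were called in the same order. The medians were -0.08 in the Tet2KD line and -0.11 in the control line. The receptor gene Tgfbr2 rose by 3.45 ± 0.07 in the Tet2KD line and 2.95 ± 0.07 in the control line. Its signal transducer Smad3 rose by 1.53 ± 0.08 in the Tet2KD line. In the control line it rose by 0.93 ± 0.08 (1.91-fold, adjusted p = 0.000197), short of the 2-fold limit. The second Smad3 probe gave 0.85 ± 0.51 in the Tet2KD line and 0.96 ± 0.51 in the control line, and neither passed the test. Of the 4 genes that act with Klf4 in reprogramming, 2 were tested in each line. Myc fell by 1.40 ± 0.06 in the Tet2KD line and fell by 1.42 ± 0.06 in the control line, and Nanog rose by 1.19 ± 0.18 and 1.27 ± 0.18 in the same order, where the calls of Nanog were lost with normexp.

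The rest of the family stayed short of the call limit where it was tested. Of 9 other Kruppel-like factor genes on the array, 2 could be tested and 0 were called in any of the 5 contrasts. Klf16 had log2 changes of -0.95 ± 0.08 in the Tet2KD line and -0.54 ± 0.08 in the control line, and Klf8, a CtBP-binding relative of Klf3, had 0.06 ± 0.06 and -0.15 ± 0.06 in the same order. Klf1, Klf5, Klf11, Klf12, Klf14, Klf15 and Klf17 were too dim to be tested. With median scaling, Klf16 and Sp4 were called lower in the Tet2KD line. Of 9 SP factor genes, which share the zinc fingers of the family, Sp1, Sp2 and Sp4 were tested and 0 were called. Klf6, Klf7, Klf3, Klf13 and, in the Tet2KD line, Klf2 were thus the family genes with calls among the 12 Kruppel-like and SP factors tested.

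**Figure D5:**
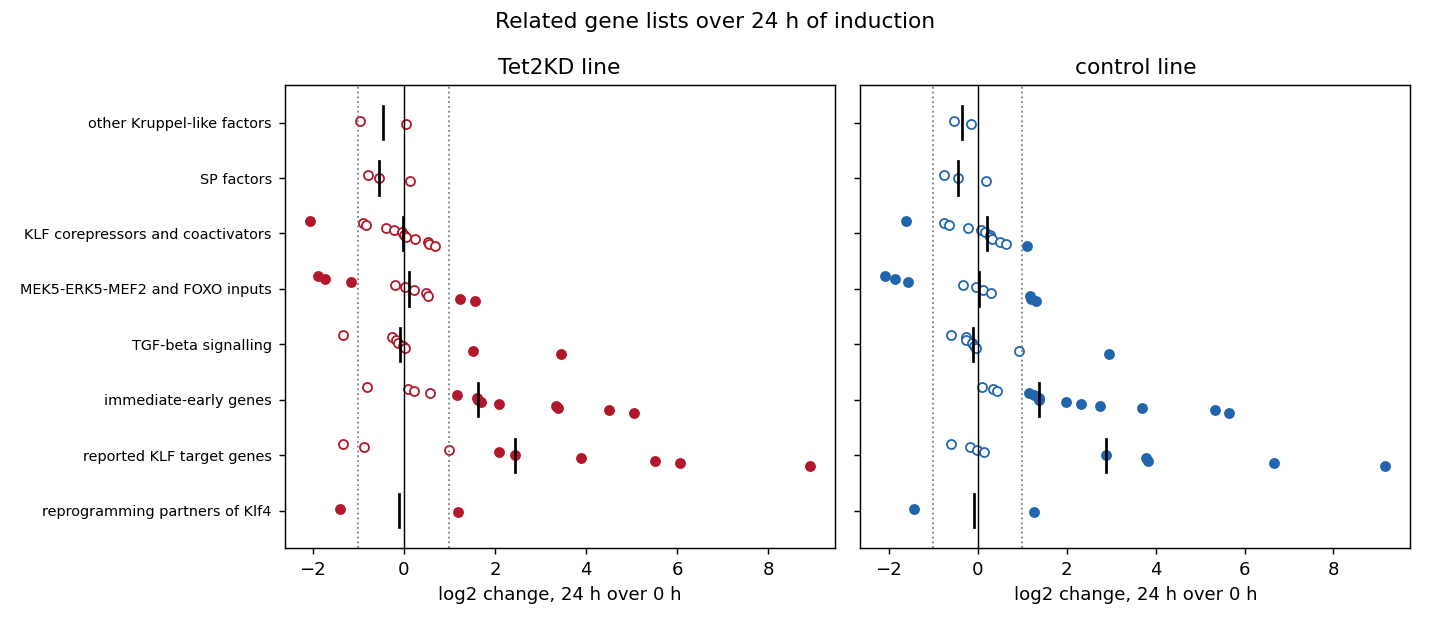
Each point is the log2 change over 24 h of one tested gene of a list, in the Tet2KD line (left) and the control line (right), filled where called, with a black bar at the list's median and dotted lines at 2-fold. Immediate-early genes and reported targets have medians above 1, while the lists of partners, inputs and relatives have medians between -0.55 and 0.22.

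Across the 8 arrays, the genes closest to each member were found as those with the smallest root mean square difference of centred log2 values, among 16113 genes with values on all arrays. For Klf2 they were Tcta, at 0.139, and H2-Oa, at 0.171, with changes of 2.05 and 1.89 in the Tet2KD line and of 0.85 and 0.58 in the control line. Klf2's closest genes were farther from it than those of any other tested member were from theirs, for which the distance was at most 0.0745. For Klf3 they were Ncf4 and Ifi27, for Klf6 Pgs1 and Ifnar1, for Klf7 Ero1a and Gnaq and for Klf13 Gpr18 and Ssh2. Klf9 was closest to the unnamed probe A_55_P2006754 and to Mkrn1. Klf10 was closest to Ctbp1, at 0.0248, and Nsfl1c. The distance is not scaled to the size of a gene's changes, so it can be small for a member that moves little, such as Klf10. Ctbp1, a CtBP gene, had log2 changes of -0.40 in the Tet2KD line and -0.21 in the control line, where Klf10 had -0.39 and -0.19.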

How the data were processed

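RNA of 4 groups was hybridised to 1-colour Agilent arrays, 2 per group. Per the file headers, the deposited scanner files came from Feature Extraction 10.7.3.1 and hold each spot's processed signal as a background-subtracted intensity, with probes placed on mouse build mm9. The deposited value table is on a log2 scale, with a median of 6.84 on each array, and per the submitters' processing notes limma was used. Its background correction and scaling are not given in the sources used here. It had r = 1.00 with normexp (offset 50) followed by quantile normalization. Per the labels' protocols, 500 ng of total RNA was amplified per sample.

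Each array's processed signals were divided by their 75th percentile over probe spots and taken to log2. Outlier spots (155 to 219 per array) and 1377 control spots were left out, and no spot was saturated. A probe was kept (20306 of 39429) if some group had it well above background on each of its 2 arrays, and of several probes the one with the highest mean was used. RefSeq names came from the accession (11620 genes), the symbol (580) or a synonym (89), and 3864 genes have the file's own name. One model with 4 group means was fitted in R 4.3.3 with limma 3.58.1 (files were read with data.table, version 1.17.8), leaving 4 residual and 1.51 prior degrees of freedom. Tests were 2-sided and adjusted over 16153 genes. The fit was tested on simulated data. Promoters and figures were handled with Python 3.11.15 (pandas 2.3.3, matplotlib 3.10.9). The number of arrays limits the precision.

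For a group with no array well above background, the fold given is a bound. It compares the measured group with the other's values raised, per array, to the lowest signal found well above background.

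Replicate numbers coincide with slides. Deviations from group means correlated between same-numbered arrays for each of the 6 pairs of groups (0.298 to 0.413), so the numbers were taken to pair arrays, and a fit with the replicate block was run beside the unblocked one. Duplicate arrays correlated with r of 0.992 to 0.994.

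The members, lists and tests were chosen with earlier results of these data known. The rule for named genes was every member, Tet2, each called Kruppel-like or SP factor, at most 3 called genes with the largest change per further list and comparison, and 2 closest genes per member. Alternatives varied the background correction, scaling, dim-probe filter, probe choice, call limit, variance trend, replicate block and arrays left out. Some items that this rule names are not reported here.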

Additional observations from a re-analysis of the deposited data

Results flagged for a closer look

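Klf2 stood out because its induction differed between the lines by a test of the difference itself, 1.59 ± 0.10 on the log2 scale (Tet2KD minus control, limma adjusted p = 0.00251). Egr1 stood out by the same test, at -1.05 ± 0.11. The dim probe of Klf4 was marked well above background on 1 of 8 arrays, a Tet2KD array at 0 h. Its intensity there was 40.9, where the control arrays at 0 h read 20.9 and 27.1. Relative to each array's 75th percentile these were -5.13, against -5.59 and -5.49, on the log2 scale. That array had the highest 75th percentile intensity of the 8, at 1435, and the largest share of probe spots well above background, at 55.6%. The dim probes of Klf1, Klf11, Sp3 and Sp6 were marked on it alone. The Klf14 probe was marked only on the other Tet2KD array at 0 h. No group had enough arrays to test for a single outlying one.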

How the results depend on the processing

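The count of members called stayed at 1 (Klf2) for the difference between the inductions in all alternatives with a test, and at 5 in the Tet2KD induction and 4 in the control induction except with no minimum fold, which gave 7 in each, and with no filter on dim probes, which gave 6 in the Tet2KD line by adding the dim Klf4 as lower. The Klf2 difference between the inductions ranged from 1.44 to 1.72, with adjusted p from 0.000419 to 0.0491. At 0 h the count of 0 members became 1 (Klf2) with normexp and quantile normalization, the deposited value table, the 75th percentile over probes detected on all arrays and quantile normalization of the processed signal, was 0 to 1 with single arrays left out (1 without control 0 h replicate 1 and without Tet2KD 0 h replicate 1), and was 3 with no minimum fold. At 24 h it was 0, and 2 with no minimum fold. The fit with the replicate block left each of these counts as it was, at 5, 4, 0, 0 and 1, with adjusted p = 0.00496 for the Klf2 difference, and changed no other call of a member. Over the related lists, the 3 genes called at 0 h became 1 with normexp at either scaling and with the deposited table, 2 with no filter. The 1 called at 24 h became 0 with median scaling and with no filter, and the 2 called for the difference between the inductions became 1 under all 5 of these. Small differences changed sign, none of them called. For Klf9 the difference between the inductions was 0.0258 with normexp and the 75th percentile, 0.0112 with quantile normalization and 0.0075 with the deposited table. For Klf6 the Tet2KD minus control difference at 0 h was 0.039 with median scaling, 0.0303 within slide 1 and -0.108 to 0.0333 with single arrays left out (0.0333 without Tet2KD 0 h replicate 2). For Klf10 at 24 h it was -0.0491 with median scaling, -0.0051 within slide 2 and -0.0011 to 0.0374 with single arrays left out (-0.0011 without control 24 h replicate 1). For Klf13 the difference between the inductions was -0.0367 with median scaling and -0.0624 with the mean of its probes. The cause was not tested. Median scaling put the median of all genes at -0.11 in the Tet2KD induction, against 0.14, and the genes called there at 2172 higher and 3386 lower, against 2700 and 2494. The other single-gene values kept their direction and side of the limit (743) or passed it newly (16). The 743 include within-slide values, which have no test, so for those only the direction was compared. Signal over background left Klf4 untested.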
